A study of Mus musculus with 2 samples.

Results

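The 39 genes described here encode 28 neuropeptide precursors and 11 proteins of the dense-core granule, 7 granins or granin-like proteins and 4 enzymes that cut or modify peptides. They were taken from a list of mouse gene symbols and matched by gene identifier, without its version, to the gene tables of both libraries. All 39 matched, out of 43346 gene rows. The material was the neural tube of newborn mice of the strain B6NCrl at postnatal day 0, untreated, with no genetic change named in the labels. Each of 2 pups of 1 pregnancy gave 1 tube and 1 total RNA library, which makes 1 group with n = 2 and no other condition. The sex of the pups was not collected, and both libraries carry 1 donor identifier. With 1 library per pup, any difference between the pups is without replication, so p-values are not given.

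Expected counts over gene rows came to 26916916 for pup 1 and 40003518 for pup 2, a library 1.49 times deeper. A gene listed at 0 could hold up to 3 counts, or 0.111 CPM (counts scaled to the library total) in pup 1 and 0.075 in pup 2. Such floors, and the counting intervals given with ratios, cover counting error only. The unit of level is TPM as the authors deposited it, which is scaled by transcript length, so levels can be compared between genes. A gene was called detected when its TPM reached 1 in each library. Markers of the labelled tissue were present: 7 of 7 neuron genes, 7 of 7 glial genes, 6 of 6 dorsal horn genes and 7 of 7 motor neuron genes were detected. Genes of sensory ganglia, which lie beside the cord, were higher in pup 2, and their values stand beside Calca further on.

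Neuropeptides are made as longer precursors that enter the secretory pathway and are packed into dense-core granules. Prohormone convertases cut the precursor after pairs of basic residues, carboxypeptidase E trims those residues from the new end, and peptidylglycine alpha-amidating monooxygenase turns an exposed glycine into an amide. Granins are acidic proteins that help to form the granule, and some of them bind or restrain the convertases. In the spinal cord, peptides are known from dorsal horn interneurons, from motor neurons and from the central endings of sensory ganglion cells.

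The coding sequences show this processing code, and they are printed from the GENCODE M21 transcripts on GRCm38 for the peptides on which the results turn. Capitals mark a glycine codon followed by 2 codons for lysine or arginine, the amidation and cleavage signal at the end of the peptide. The tachykinin gene Tac1 (chromosome 6) encodes substance P and neurokinin A, both with that signal.
Tac1 substance P: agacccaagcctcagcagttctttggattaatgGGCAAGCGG
Tac1 neurokinin A: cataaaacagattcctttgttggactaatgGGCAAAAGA
Neuropeptide Y, from Npy on chromosome 6, and the 8-residue cholecystokinin, from Cck on chromosome 9, end in the same way.
Npy neuropeptide Y: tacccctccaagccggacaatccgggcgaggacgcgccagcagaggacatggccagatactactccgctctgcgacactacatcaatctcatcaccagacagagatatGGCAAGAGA
Cck cholecystokinin 8: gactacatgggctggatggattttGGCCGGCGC
Somatostatin 14 forms the end of its precursor, encoded by Sst on chromosome 16, and carries no such signal.
Sst somatostatin 14: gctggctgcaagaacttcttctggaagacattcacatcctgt
The calcitonin gene Calca encodes calcitonin gene-related peptide (CGRP) or calcitonin, depending on splicing, and its neighbour on chromosome 7, Calcb, encodes a second CGRP.
Calca CGRP: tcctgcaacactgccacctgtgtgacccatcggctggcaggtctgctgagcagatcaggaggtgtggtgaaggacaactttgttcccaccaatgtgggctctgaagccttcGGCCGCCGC
Calcb CGRP: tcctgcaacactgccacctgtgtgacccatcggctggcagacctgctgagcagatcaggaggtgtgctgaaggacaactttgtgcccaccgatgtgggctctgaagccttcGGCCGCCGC
Calca calcitonin: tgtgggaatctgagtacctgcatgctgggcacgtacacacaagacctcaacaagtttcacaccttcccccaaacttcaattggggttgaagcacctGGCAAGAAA
Over the 111 bases that encode the mature peptide, the CGRP of Calca and of Calcb differed at 5 bases and 3 of 37 encoded residues.

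Among the 28 precursors, 20 (71.4%) held at least 1 glycine codon followed by 2 basic codons in the coding sequence of their most abundant transcript. The count was 4 of 11 (36.4%) among the granins and enzymes and 33.8% among 20720 protein-coding genes. The precursors were short, with a median of 130 codons against 577 for the granins and enzymes and 378 for all protein-coding genes. Per 1000 codons there were 6.95 such signals in precursors, 0.665 in granins and enzymes and 0.961 in all protein-coding genes. All 28 precursors held at least 1 pair of basic codons, as did 11 of 11 granins and enzymes and 19638 of 20720 protein-coding genes. The presence of such a pair therefore does not set the precursors apart. Their density did differ, with a median of 2.36 pairs per 100 codons in precursors, 1.73 in granins and enzymes and 1.22 in all protein-coding genes. Trh, which encodes many copies of the tripeptide thyrotropin-releasing hormone, had 12 pairs, of which 5 followed a glycine codon. These matches describe letters in the coding sequence and do not show that a site is cut.

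Of the 39 genes, 33 (84.6%) were detected, against 35.5% of all gene rows and 63.8% of nuclear protein-coding genes. These were 22 of 28 precursors and 11 of 11 granule genes. The median level was 27.4 TPM over the 39 genes, 8.78 TPM over the precursors and 108 TPM over the granins and enzymes, while all nuclear protein-coding genes had a median of 5.50 TPM. By mean TPM, 10 genes were at 100 or more, 13 between 10 and 100, 10 between 1 and 10, and 6 below 1. The detected genes spanned an 860-fold range. The TPM lay outside the interval that the authors deposited with it for 8 of the 39 genes in pup 1 and 5 in pup 2. Cpe, the carboxypeptidase E gene, was among them in both pups. It had 1029.7 TPM against 985.8 to 1006.7 in pup 1 and 1069 against 1037.5 to 1054.8 in pup 2. Sst was among them in pup 1. The pups ranked the genes almost alike: 26 of 39 held the same rank in both. Of 38 pairs of neighbours in the order of mean TPM, 12 had pup values that overlapped, so their order is not resolved by these libraries. In bulk tissue, fewer cells of a type and less RNA per cell cannot be told apart.

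**Figure D1:**
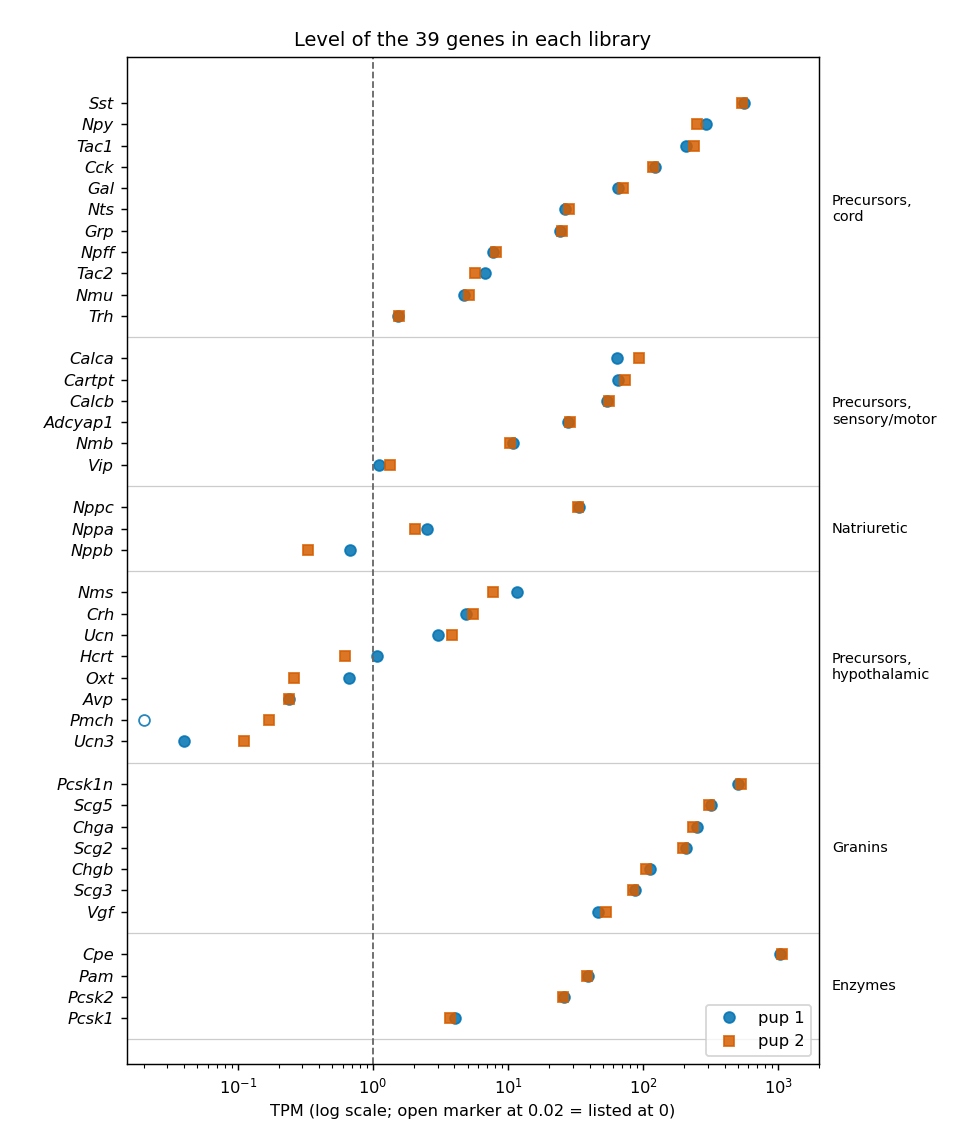
TPM of the 39 genes in pup 1 (circles) and pup 2 (squares) on a log axis, grouped by role, with the detection level of 1 TPM as a dashed line. Cord precursors, granins and enzymes all sit right of the line, and the genes left of it in at least 1 pup are Nppb and 5 hypothalamic precursors.

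The 11 precursors known from cord interneurons were all detected, and 4 of them exceeded 100 TPM. Sst, whose peptide inhibits neurons and marks a class of dorsal horn interneurons, led with 560.0 TPM in pup 1 and 539 in pup 2 (549 ± 15.2, SD, n = 2). It ranked 203 among 21461 nuclear protein-coding genes and made up 34.3% of the summed precursor TPM. Npy, a transmitter of inhibitory dorsal horn interneurons, stood at 293 TPM in pup 1 and 252 in pup 2. Tac1 stood at 208 TPM in pup 1 and 238 in pup 2. Cck, a peptide of excitatory interneurons, stood at 122 TPM in pup 1 and 118 in pup 2. By TPM, pup 1 was the higher for Sst, Npy and Cck and pup 2 for Tac1, but after TMM scaling of counts Sst (1.01-fold) and Cck (1.02-fold) leaned to pup 2. The pup values of these 4 genes did not overlap one another.

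Lower in the same group came Gal, the precursor of the inhibitory peptide galanin, with 64.5 TPM in pup 1 and 70.7 in pup 2. Nts, the neurotensin precursor, had 26.5 TPM in pup 1 and 28.3 in pup 2. Grp, whose gastrin-releasing peptide carries itch signals in the dorsal horn, had 24.3 TPM in pup 1 and 24.9 in pup 2. These 3 genes filled the range between the abundant and the scarce cord peptides. Npff, the precursor of neuropeptide FF, a modulator of opioid action, had 7.66 and 8.08 TPM. Tac2, the neurokinin B precursor, had 6.69 and 5.70 TPM, so Tac1 exceeded Tac2 by 31.1-fold in pup 1 and 41.8-fold in pup 2. Nmu, the neuromedin U precursor, had 4.69 and 5.11 TPM, and Trh had 1.53 and 1.55 TPM. Npff overlaps another annotated gene on the same strand, so strand cannot separate their reads. Grp and Nmu each overlap a gene on the other strand, and the strand setting of the counting is not given in the sources used here. The levels of these 3 genes are therefore uncertain.

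The 6 precursors known from sensory ganglion cells or motor neurons were all detected. Calca, whose CGRP is made by motor neurons and by peptidergic sensory neurons, had 63.5 TPM in pup 1 and 92.5 in pup 2 (78.0 ± 20.5, SD, n = 2). Calcb had 53.6 TPM in pup 1 and 56.1 in pup 2. The ratio of Calca to Calcb was therefore 1.19 in pup 1 and 1.65 in pup 2. Reads from the near-identical CGRP stretch can be divided between these genes by the authors' estimation, and its effect on their split was not tested. The expected counts were whole numbers for Calca (977.0 and 2195.0) and Calcb (795.0 and 1279.0). Those of Npff were not (70.6 and 106.6). Cartpt, the precursor of the CART peptides, had 65.3 and 73.8 TPM. Adcyap1, the precursor of the adenylate cyclase activating peptide PACAP, had 27.9 and 28.7 TPM. Its relative Vip, the vasoactive intestinal peptide precursor, was near the detection level at 1.10 and 1.34 TPM, so Adcyap1 exceeded it 25.4-fold in pup 1 and 21.4-fold in pup 2. Nmb, the neuromedin B precursor, had 10.8 and 10.4 TPM, and it overlaps Sec11a on the same strand.

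Of the 3 natriuretic peptide genes, Nppc led with 33.3 TPM in pup 1 and 32.8 in pup 2. Its product, C-type natriuretic peptide, acts through Npr2 and is known for its part in the branching of sensory axons as they enter the cord. Nppa, the atrial peptide gene, had 2.51 and 2.04 TPM, so Nppc exceeded it 13.3-fold in pup 1 and 16.1-fold in pup 2. Nppa overlaps a gene on the other strand. Nppb, the brain-type peptide gene, was not detected at 0.68 and 0.33 TPM, from 8 and 6 counts. Of 5 heart muscle markers, Myl4 (5.93 and 5.27 TPM) and Tnnt2 (2.81 and 1.83 TPM) were detected, and Nkx2-5 was lowest at 0.04 TPM in pup 1 and 0 in pup 2. The summed TPM of these markers was 9.51 in pup 1 and 7.67 in pup 2, and their part in the Nppa and Nppb values was not tested.

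The 8 precursors best known from the hypothalamus fell into detected and near-absent genes. Nms, the neuromedin S precursor, had 11.6 TPM in pup 1 and 7.76 in pup 2. Crh, the corticotropin-releasing hormone precursor, had 4.84 and 5.46 TPM, and Ucn, the related urocortin, had 3.01 and 3.81 TPM. Those 3 were detected. Hcrt, the orexin precursor, passed 1 TPM in pup 1 (1.07) and not in pup 2 (0.62), from 9 and 8 counts. Oxt, the oxytocin precursor, had 0.66 and 0.26 TPM, and Avp, the vasopressin precursor, had 0.24 TPM in each pup. Ucn3 had 0.04 and 0.11 TPM, and Pmch, the melanin-concentrating hormone precursor, was listed at 0 in pup 1 and had 0.17 TPM in pup 2. Pmch overlaps Parpbp on the other strand. Among 8 markers of the hypothalamus and pituitary, only Otp, which the spinal cord also expresses, was detected (4.53 and 4.67 TPM), and Nkx2-1, Rax and Pitx1 were among those with 0 counts in both libraries. The 8 markers summed to 4.56 TPM in pup 1 and 4.95 in pup 2.

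The 7 granins and granin-like genes were all detected, 5 of them above 100 TPM. Pcsk1n, which encodes proSAAS, an inhibitor of the convertase PC1/3, had 504 TPM in pup 1 and 533 in pup 2. Scg5 encodes 7B2, the chaperone of the convertase PC2, and had 315 and 309 TPM. Chga, the chromogranin A gene, had 251 and 233 TPM, and Chgb, chromogranin B, had 112 and 104 TPM. Chga exceeded Chgb 2.25-fold in pup 1 and 2.24-fold in pup 2. Scg2, the precursor of secretoneurin, had 207 and 197 TPM. Scg3, a granin that binds chromogranin A, had 86.3 and 84.2 TPM, and Vgf, a neurotrophin-induced granin, had 46.3 and 52.7 TPM. By TPM, Pcsk1n and Vgf were higher in pup 2 and the other 5 in pup 1, but after TMM scaling of counts Scg5 (1.03-fold) and Scg3 (1.02-fold) leaned to pup 2 as well. No neighbours among these 7 genes overlapped. Pcsk1n overlaps Eras on the other strand.

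Cpe, the carboxypeptidase E gene, was the most abundant of all 39, with 1029.7 TPM in pup 1 and 1069 in pup 2 (1049.5 ± 28.0, SD, n = 2). It ranked 64 among the nuclear protein-coding genes and made up 39.8% of the summed TPM of granins and enzymes. Pam, the amidating enzyme, had 38.8 and 38.4 TPM. Of the convertases, Pcsk2, which encodes PC2, had 25.8 and 25.6 TPM, and Pcsk1, which encodes PC1/3, had 4.06 and 3.68 TPM. Pcsk2 exceeded Pcsk1 by 6.35-fold in pup 1 and 6.95-fold in pup 2. The proteins that bind these convertases stood higher than the enzymes: Scg5 exceeded Pcsk2 12.2-fold and 12.1-fold, and Pcsk1n exceeded Pcsk1 124-fold and 145-fold. Pam overlaps 2 annotated genes on the same strand and carries the limit given for Npff. Pcsk2 overlaps 2 on the other strand and carries the limit given for Grp and Nmu.

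Together the 28 precursors summed to 1599.97 TPM in pup 1 and 1607.55 in pup 2, or 0.160% and 0.161% of all TPM. The 5 most abundant precursors held 77.5% of that sum. The 11 granins and enzymes summed to 2620.2 TPM in pup 1 and 2649 in pup 2, or 0.262% and 0.265%. Without division by length, as CPM, the precursors summed to 684 and the granins and enzymes to 3433. The median effective length was 727 bases for precursors and 2322 for granins and enzymes, so the gap between both sums depends on the scale. Ranks by CPM moved Scg2 to 3, Sst to 7 and Npy to 11.

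Transcript shares were read from the percent that the authors deposited for each transcript of a gene. Of the 39 genes, 24 had 1 annotated transcript and 15 had several, and 14 of those had a mean of at least 1 TPM. In 13 of these 14 the leading transcript was the same in both pups, and in 7 it held over 90% in each. Calca was almost wholly in the CGRP form: Calca-201 held 99.0% in pup 1 and 99.8% in pup 2. The calcitonin form, Calca-202, held 0.96% and 0.22%. It rested on 8 of 977 counts in pup 1 (0.819%, exact Clopper-Pearson 95% interval 0.354 to 1.61%) and 4 of 2195 in pup 2 (0.182%, 0.0497 to 0.466%). Both forms share 2 coding exons with 227 bases. The last coding exon of the CGRP form lies at chr7:114632443-114632599 (157 bases) and that of the calcitonin form at chr7:114633605-114633785 (181 bases), on the minus strand of GRCm38.

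Tac1 was spread over 3 coding forms that together held 99.8% of its TPM in pup 1 and 99.7% in pup 2. All of them encode substance P, and their coding sequences differ by 2 exons. These are printed in capitals within bases 124 to 390 of the coding sequence of Tac1-205, the form with both exons, known as beta.
Tac1-205 coding bases: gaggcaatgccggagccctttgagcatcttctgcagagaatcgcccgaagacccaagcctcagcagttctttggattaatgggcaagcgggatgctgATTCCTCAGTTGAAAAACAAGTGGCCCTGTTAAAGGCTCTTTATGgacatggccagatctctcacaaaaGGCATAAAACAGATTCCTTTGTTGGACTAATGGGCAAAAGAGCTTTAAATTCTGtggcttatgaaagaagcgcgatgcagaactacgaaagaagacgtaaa
The first capital run is a 45-base exon at chr6:7557216-7557260, absent from Tac1-203, the gamma form. The other is the 54-base neurokinin A exon at chr6:7559099-7559152, absent from Tac1-201, the alpha form. Tac1-203 held 36.8% in pup 1 and 40.7% in pup 2, Tac1-205 32.3% and 31.1%, and Tac1-201 30.8% and 27.9%. Forms with the neurokinin A exon thus held 69.0% and 71.8%. The transcripts are 691 (Tac1-203), 1230 (Tac1-205) and 980 (Tac1-201) bases long and so differ by more than these 2 exons. Their shares therefore do not rest on reads over the exons alone. The deposited counts gave another order, since Tac1-203 is the shortest of the 3: it took 25.4% and 28.7% of Tac1 counts, and Tac1-205 took 42.7% and 41.9%.

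Scg2 was the 1 gene whose leading transcript differed between the pups. Scg2-201 held 52.8% in pup 1 and 43.4% in pup 2, and Scg2-202, which lacks 120 coding bases, held 47.2% and 56.6%. Pam was mostly Pam-210 (71.3% and 65.4%), which lacks a 318-base coding exon at chr1:97864203-97864520. The 2 Pam forms with that exon held 20.7% in pup 1 and 22.4% in pup 2. Nms-201 held 64.9% and 59.5% and Nms-202 the rest. Nmb-201 held 89.0% in pup 1 and 74.6% in pup 2, on 112 and 165 counts of the gene. Grp-201 held 85.1% and 81.5%. Npff-201 held 79.5% and 87.8%, and the rest was a retained-intron transcript. Scg5-201, Calcb-201, Vgf-201, Pcsk2-201, Pcsk1-201 and Tac2-201 each held over 90% in both pups.

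**Figure D2:**
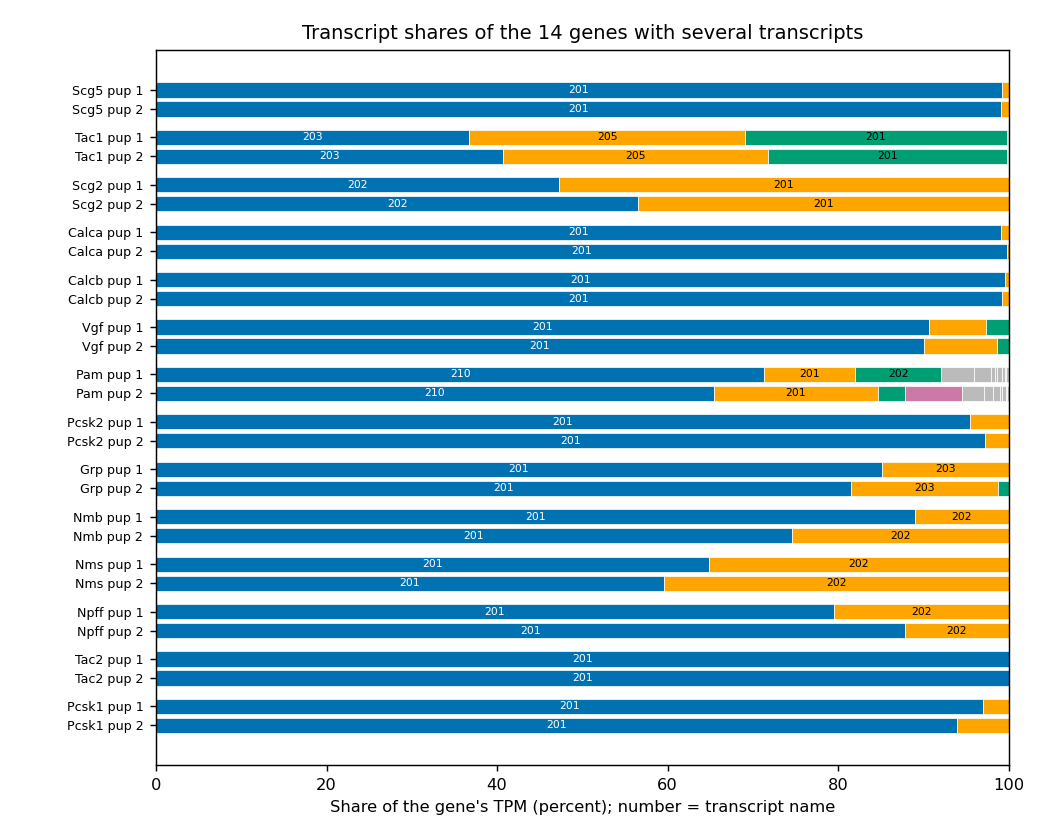
Share of each gene's TPM held by each transcript (percent), as stacked bars, with a bar for each pup, for the 14 genes with several transcripts and a mean of at least 1 TPM. Tac1, Scg2 and Nms are split between forms, while Scg5, Calca and Calcb are almost wholly 1 form.

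A list of peptide receptors, their accessory proteins and 1 binding protein, Crhbp, had 32 of 46 matched genes detected, with Galr3 unmatched. Over all nuclear protein-coding genes the share detected was 63.8%. The highest were Ramp2 (119 and 127 TPM), an accessory protein of the adrenomedullin receptor, Ramp1 (62.1 and 59.6 TPM), which makes the CGRP receptor with Calcrl, and Adcyap1r1 (61.6 and 55.7 TPM), the PACAP receptor. The lowest was Avpr1b, a vasopressin receptor, with 0.11 TPM in pup 1 and 0 in pup 2. A list of 27 precursors with their known receptors, written after the values had been seen, held 18 pairs with both sides detected. In 3 pairs only the precursor was detected, those of Nmu, Nms and Vip. Nmur2, a receptor for Nmu and Nms, had 0.40 and 0.54 TPM, and Vipr2, for Vip, had 0.71 and 0.69 TPM. Both Vipr2 values lay below their own deposited intervals (0.855 to 2.42 and 0.759 to 1.94 TPM). These intervals span 1 TPM, so the call for Vip depends on the estimate used. In 6 pairs only a receptor was detected. These included Hcrtr1 (15.1 and 12.1 TPM) for Hcrt, Mchr1 (7.77 and 7.49 TPM) for Pmch, Avpr1a (4.12 and 4.01 TPM) for Avp and Oxtr (2.84 and 2.53 TPM) for Oxt. The other 2 were Npr1 for Nppb and Crhr2 for Ucn3.

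**Figure D3:**
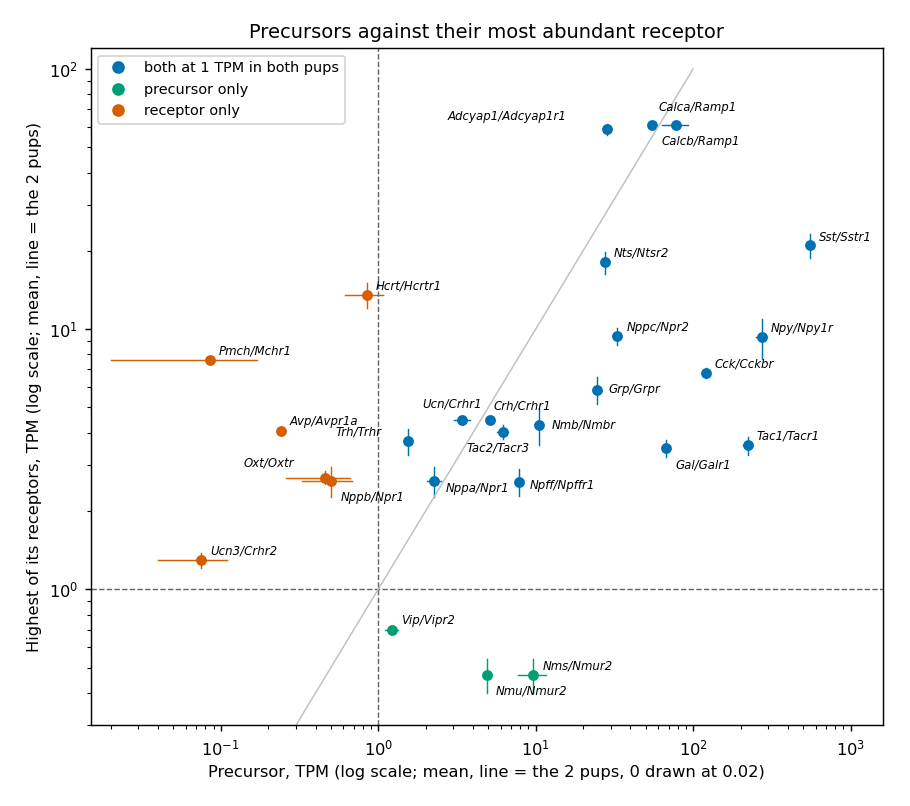
Mean TPM of 27 precursors (horizontal) against the most abundant receptor of each (vertical), both on log axes. Thin lines join the 2 pups, dashed lines mark 1 TPM and a diagonal marks equal level. For Calca and Calcb the receptor gene drawn is the accessory protein Ramp1. Most detected precursors lie right of the diagonal, and 6 precursors below 1 TPM have a receptor above it.

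Of 21 detected precursors with a listed receptor, 16 stood above their most abundant receptor in both pups. Sst stood at 560.0 and 539 TPM against 23.1 and 18.8 TPM for Sstr1. Tac1 stood at 208 and 238 TPM against 3.86 and 3.29 TPM for Tacr1, the substance P receptor. The 5 others were Calcb, Adcyap1, Trh, Ucn and Nppa. Adcyap1 lay below its receptor in both pups, at 27.9 and 28.7 TPM against 61.6 and 55.7 TPM. Messenger levels do not give the amount of peptide or receptor protein.

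Other processing genes were all detected, 12 of 12, against 63.8% of nuclear protein-coding genes. The highest were Ctsl, the cathepsin L gene (112 and 125 TPM), Qpct, which forms N-terminal pyroglutamate (30.8 and 34.3 TPM), and Cyb561, which supplies electrons to Pam (28.8 and 27.3 TPM). Cpd, a carboxypeptidase of the earlier secretory pathway, had 4.90 and 4.42 TPM, so Cpe exceeded it 210.1-fold in pup 1 and 242-fold in pup 2. Furin, the widely expressed convertase, had 5.65 and 6.28 TPM, below Pcsk2. Of 15 genes for granule traffic, 14 were detected, against the same 63.8%. Rab3a, a vesicle GTPase, led with 731 and 678 TPM, followed by Resp18 (417 and 457 TPM), a protein of endocrine granules, and Syt4 (191 and 172 TPM), a synaptotagmin of dense-core granules. Sytl4, the granuphilin gene, was lowest at 0.60 and 0.56 TPM.

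Between the pups, 26 of the 39 genes had a mean count of at least 100 and were compared after TMM scaling. Calca alone passed 1.5-fold, 1 of 26 (3.85%), against 2.01% of 13545 genes at that count: 1.54% higher in pup 2 and 0.465% lower. Of the 26, 23 differed by less than 1.2-fold. Their median log2 ratio, pup 2 minus pup 1, was 0.05, and the median size of the log2 ratio was 0.11, the same as over all genes compared. Calca had 977 counts in pup 1 and 2195 in pup 2, and its scaled level was 1.53-fold higher in pup 2, log2 0.61 (95% counting interval of the ratio 1.42 to 1.65). The lower end of that interval lies below the 1.5-fold line. Nms stood just short of it on the other side, with 145 and 144 counts and a level 1.47-fold higher in pup 1, log2 -0.56 (interval of the pup 2 to pup 1 ratio 0.533 to 0.858).

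Markers of sensory ganglion neurons moved with Calca. Their summed TPM over 11 genes was 103 in pup 1 and 170.4 in pup 2, and their median log2 ratio was 2.07. Among those detected in both pups were Prph, an intermediate filament of peripheral and motor neurons (94.8 and 126 TPM), the homeobox gene Isl2 (3.57 and 8.90) and Pirt, a regulator of the channel Trpv1 (1.29 and 5.20). A further 4 passed 1 TPM only in pup 2: Avil, an actin-binding protein (0.70 and 8.55), P2rx3, an ATP-gated channel (0.58 and 4.95), Prdm12, a regulator of nociceptor identity (0.20 and 2.37) and Scn10a, a nociceptor sodium channel (0.19 and 1.35). The sodium channel Scn11a (0.21 and 0.84), the receptor Mrgprd (0.17 and 0.74) and the heat-gated channel Trpv1 (0.22 and 0.48) were below 1 TPM in both pups. Of 7 markers with a mean count of at least 100, 6 were over 1.5-fold higher in pup 2, from Isl2 at 2.56-fold to Avil at 12.0-fold, and Prph was 1.40-fold higher. The 5 other precursors grouped with Calca had smaller ratios of pup 2 to pup 1 by TMM-scaled counts: Vip 1.27 (27 and 51 counts, under the minimum for the comparison), Cartpt 1.18, Calcb 1.09, Adcyap1 1.08 and Nmb 1.00. Of the cord group, Tac1 and Gal are also known from sensory ganglia, with ratios of 1.18 and 1.15. The 7 motor neuron markers, cells that also make CGRP, summed to 148 TPM in pup 1 and 159 in pup 2. Of these only Isl1, a factor of motor and sensory neurons, reached 1.5-fold by TMM-scaled counts (353 and 779 before scaling). Its TPM differed less, at 12.3 and 14.4, and the deposited TPM intervals of both pups overlapped. The part of either cell type in the Calca value was not tested.

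**Figure D4:**
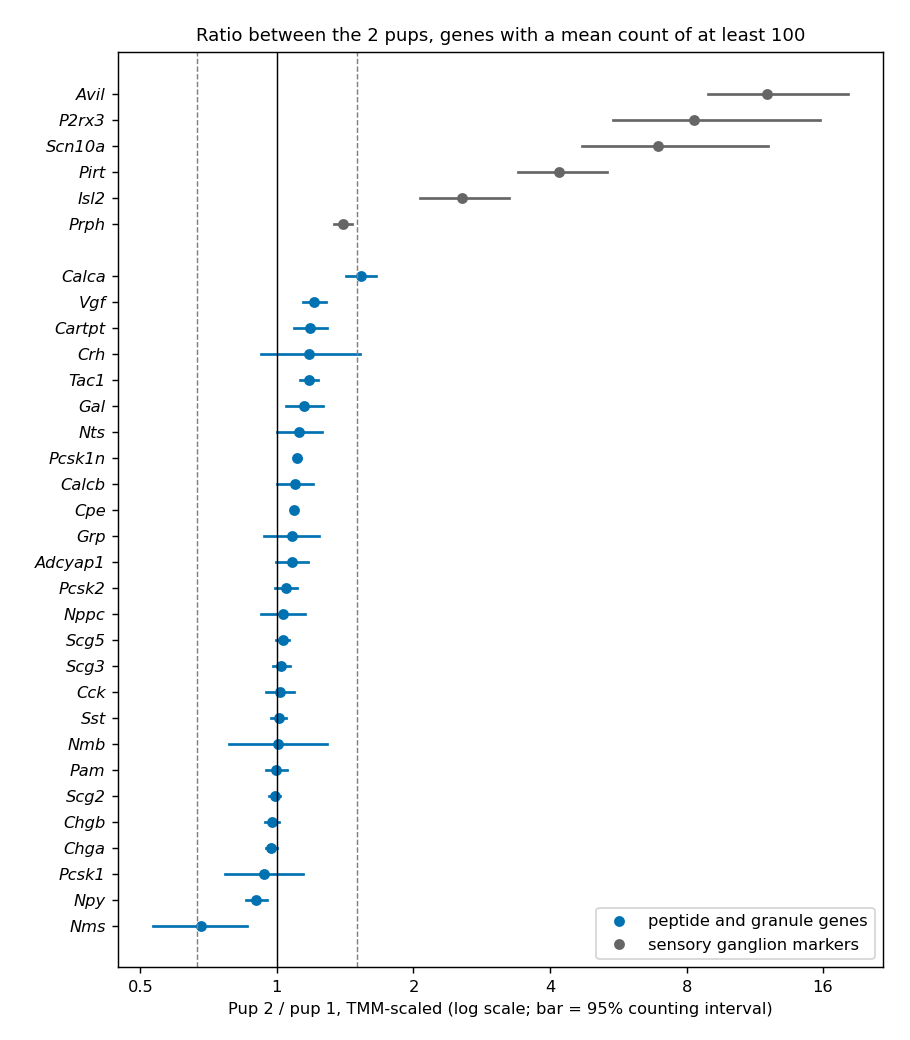
Ratio of pup 2 to pup 1 after TMM scaling, on a log axis, with 95% counting intervals as bars, for the 26 genes (blue) and 6 sensory ganglion markers (grey) with a mean count of at least 100. Dashed lines mark 1.5-fold in each direction; Calca lies at 1.53, and 5 of the 6 markers plotted lie from 2.56 to 12.0.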

How the data were processed

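Total RNA above 200 bases from 2 neural tubes, 10 ng per library, was extracted with the mirVana kit, per the labels' protocols. The deposited expected counts are estimated reads per gene and transcript and need not be whole. The deposited TPM values are scaled by effective length over all rows, and the interval bounds the authors deposited are signal values on that scale. For each transcript the authors deposited its percent of the TPM of the gene. Build mm10 and annotation GENCODE M4 are named in the deposited notes. Strandedness, aligner and counting version were not given in the sources used here.

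Symbols, coordinates and coding sequences came from GENCODE M21 on GRCm38, in which 18 of the 76 transcripts of the 39 genes have another length. They belong to 15 genes and include Pcsk1-201 (2677 bases as deposited, 5040 in M21) and Adcyap1-201 (2088 and 3392). TPM rests on the deposited lengths, and the effect of other lengths on the levels and their ratios was not tested. Protein sequences were not used here, so residue pairs were counted as codons. Counts were rounded, scaled by TMM over 18105 genes whose mean count was 10 or more (edgeR 4.0.16, R 4.3.3) and turned into log2 ratios with a prior count of 2. DESeq2 1.42.0 gave alternative size factors. Other steps used Python 3.11.15, pandas 2.3.3, numpy 2.4.6, scipy 1.17.1 and matplotlib 3.10.9. On simulated data for this comparison (18105 genes), 96.5% of 200 genes changed 2-fold passed the 1.5-fold rule, as did 1.03% of 13340 unchanged genes. The spread of the simulated counts was set in advance and not estimated from these pups, so 1.03% is not an error rate for them.

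Named were all 39 genes; of each other list the 3 highest, the lowest and any member at 1 TPM in 1 library only; all sensory ganglion markers; and list members past 1.5-fold at a mean count of 100. Some genes under this rule are not reported here, though list counts and sums include them. The 39 genes and the lists were chosen with earlier results of these data known. Alternatives were other thresholds, posterior means, scalings and filters, and leaving out a library.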

Additional observations from a re-analysis of the deposited data

How the results depend on the processing

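The number of genes detected was 34 at a threshold of 0.5 TPM, 31 at 2 TPM, 33 by posterior mean TPM, 32 by the lower interval bound and 32 at 1 CPM, against 33, and 33 to 34 with either library left out. The precursors summed to 1564 by posterior mean TPM, 1999 by TPM over nuclear protein-coding genes and 684 by CPM, and the granins and enzymes to 2566, 3284.5 and 3433; with either library left out the sums were 1599.97 to 1607.55 and 2620.2 to 2649. The 1 gene past 1.5-fold became 6 with no filter on counts, through the low-count genes Hcrt, Nppb, Oxt, Pmch and Ucn3, and 0 at 2-fold. The share over all genes without that filter is not given here. The number stayed 1 under the other 5 settings, Calca being 1.51-fold higher with library totals alone. Of the 39 levels, 36 moved by more than the SD of the pups by CPM, 32 by TPM over protein-coding genes and 10 by posterior mean TPM. CPM is not divided by length, and TPM over protein-coding genes has another total. The counts for those measures therefore do not show how stable the levels are. The leading transcript was shared in 13 genes under both other measures; the pup ratio and this count need both libraries, so neither has a value with 1 left out. No paired analysis was possible because the series holds 1 group with 1 library per pup. Low counts limit Hcrt, Nppb, Oxt, Avp, Pmch and Ucn3, each at 9 counts or fewer in each library.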

Other observations

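Of 33 other peptide precursors that matched a row, 14 were detected, against 63.8% of nuclear protein-coding genes, and Kiss1 did not match. The opioid precursors led: Penk, the enkephalin gene, had 226 TPM in pup 1 and 221 in pup 2, Pnoc, the nociceptin gene, 47.4 and 42.6 TPM, and Pdyn, the dynorphin gene, 40.4 and 37.7 TPM. Penk thus stood between Npy and Cck in level. Rln3, the relaxin 3 gene, passed 1 TPM in pup 1 (1.63) and not in pup 2 (0.77). Cort, the cortistatin gene and a relative of Sst, had 0.60 and 0.72 TPM, so Sst exceeded it 933-fold in pup 1 and 748-fold in pup 2. Ghrl, the ghrelin gene, and Prlh, the prolactin-releasing hormone gene, were listed at 0 in both pups.

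All 9 peptidases that degrade neuropeptides were detected, against 63.8% of nuclear protein-coding genes. The highest were Nln, the neurolysin gene (33.8 and 30.6 TPM), Thop1, the thimet oligopeptidase gene (33.2 and 30.7 TPM), and Ece1, which encodes endothelin-converting enzyme 1 (22.0 and 18.2 TPM). Lnpep, an aminopeptidase, was lowest at 2.53 and 2.22 TPM. Dpp4, the dipeptidyl peptidase gene, had 2.21 and 3.49 TPM, and its TMM-scaled counts (145 and 368 before scaling) were 1.72-fold those of pup 1 in pup 2. Pcsk6, a convertase gene, had 2.05 and 3.10 TPM, and its TMM-scaled counts (135 and 316 before scaling) differed 1.59-fold in the same direction. Mbp, the myelin basic protein gene, also differed between the pups, with 183 and 363 TPM. Of 6 autonomic and chromaffin markers, Pnmt (2.64 and 3.03 TPM) and Th (1.71 and 1.26 TPM) were detected, and Hand2 was listed at 0 in both pups. No cause of these values was tested.

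The markers of the labelled tissue were led by Stmn2 (1096 and 1119.9 TPM), Tubb3 (1094 and 915) and Snap25 (378 and 344) among neuron genes, with Elavl3 lowest (51.9 and 41.3). Among glial genes Aldoc (944 and 915 TPM), Mbp and Gfap (201 and 236) led, and Cx3cr1 was lowest (14.9 and 16.3). Prrxl1 (81.0 and 74.7 TPM), Lbx1 (16.5 and 19.5) and Tlx3 (15.8 and 17.7) led the dorsal horn genes above Lmx1b (6.34 and 5.62). Chodl (58.2 and 63.3 TPM), Slc18a3 (40.6 and 42.6) and Ret (19.8 and 18.9) led the motor neuron genes above Mnx1 (1.19 and 1.40).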
